A study of Mus musculus with 6 samples.

Results

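The nuclear pore and nuclear transport genes were taken as the protein-coding genes whose symbols begin with Nup and a number, Xpo, Ipo, Kpna, Kpnb, Nxf1, Nxt or Tnpo and a number, in a count table of 27098 genes. The name pattern found 47 genes, and all 47 had enough counts to be tested among the 17475 tested genes. The rule uses names and no measured value. Of these, 21 code for nucleoporins and 26 for transport receptors and their cofactors. Nucleoporins with other names, such as Nupl1, Nupl2, Pom121, Tpr and Ranbp2, lie outside the pattern.

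The libraries came from whole ovaries of newborn mice at 3 days of age, kept in DMEM/F12 medium with antibiotics. The 3 PRP libraries were from ovaries given 2% platelet-rich plasma (PRP) for 2 h, and the 3 control libraries from ovaries in the same medium without it for 2 h. PRP is plasma in which platelets, and the growth factors they carry, have been concentrated. The series text calls it human and thrombin-activated, and the labels name neither a strain nor a control with thrombin or other plasma. Nothing in the labels tells whether the replicates came from different animals, litters or cultures, so p-values measure only the spread between these libraries, which may be technical.

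Nuclear pore complexes are the channels through the nuclear envelope. Each is a stack of rings built from nucleoporins: an outer ring on each face, an inner ring, membrane proteins that hold the ring in the pore, cytoplasmic filaments, a nuclear basket, and channel nucleoporins whose phenylalanine-glycine repeats let transport receptors pass. Importins carry proteins with nuclear localisation signals inwards, exportins carry proteins and RNAs outwards, and both take their direction from the small GTPase Ran. Most messenger RNA leaves by another route, through the Nxf1-Nxt1 heterodimer. In the ovary at this age the oocyte nucleus is large and held in meiotic arrest, and the FOXO3 protein leaves it when a primordial follicle is activated.

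Library totals ran from 36037111 to 36568367 counts in PRP and from 35568000 to 35825931 counts in control. The tissue label was checked with markers. The 12 oocyte markers summed to 2648 to 3816 CPM (each gene's counts scaled to a common normalised library size) in PRP and 2535 to 3474 CPM in control, and the 8 granulosa markers to 982 to 1098 CPM in PRP and 923 to 1068 CPM in control. Control 3 stood apart. Its erythroid markers summed to 1532 CPM, against 109 to 225 CPM in PRP and 108 to 144 CPM in the other controls. Its interferon-stimulated genes summed to 274 CPM, against 135 to 157 CPM in PRP and 149 to 189 CPM in the other controls. All 9 of these genes lay below 0 in the unpaired fit, where 49.6% of all tested genes did. PRP was the lower in every pair of equal replicate numbers in 6 of them, against 16.3% of all tested genes. In edgeR with the replicate number as a block 0 of the 9 passed (smallest adjusted p = 0.0641). All 3 PRP libraries lay above the controls in the summed level of 5 surface epithelium markers, at 170 to 195 CPM in PRP and 150 to 155 CPM in control. The 6 stroma markers summed to 6114, 4929 and 6078 CPM in PRP 1 to 3, against 5211, 4615 and 5832 CPM in control 1 to 3. The oocyte sums were likewise the higher in PRP in each pair, at 3816, 2648 and 3548 CPM in PRP, against 3474, 2535 and 2916 CPM in control. In edgeR with the replicate number as a block, 2 of the 12 oocyte markers and 1 of the 5 surface epithelium markers passed as higher in PRP (smallest adjusted p = 0.0331 in both lists), and 0 of the 6 stroma markers did (smallest adjusted p = 0.0641). Over all tested genes, 14 of 17475 passed as higher in that fit. Of the 12 oocyte markers, 3 lay below 0 in the unpaired fit. In the blocked edgeR fit 1 oocyte marker was lower at an unadjusted p under 0.05. No listed marker was at 0 in every library, and the part of these shifts in the members' values was not tested. Whole-tissue RNA cannot tell fewer cells of a type from less RNA per cell.

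Promoter windows of RefSeq (build GRCm38.p6), from 250 bases before to 50 bases after an annotated start, were found for 38 of the 47 genes. Among those shown, the Nup155 window is not set on the first base of the gene span given below. It reaches more than 50 bases into that span. They are shown for Tnpo1, Nup153 and Nup155, which had 3 of the 4 smallest p-values, for the channel gene Nup62, and for Kpna7, the germ cell importin. In the first 3, capitals mark the CCAAT box and the GC box GGGCGG on either strand. The Nup153 window holds GC boxes alone and no CCAAT box. In Nup62, the capitals are the core of the site read by the factor NRF1. In Kpna7, capitals mark E-boxes, CANNTG.
Tnpo1, chr13:98926335-98926634, minus strand: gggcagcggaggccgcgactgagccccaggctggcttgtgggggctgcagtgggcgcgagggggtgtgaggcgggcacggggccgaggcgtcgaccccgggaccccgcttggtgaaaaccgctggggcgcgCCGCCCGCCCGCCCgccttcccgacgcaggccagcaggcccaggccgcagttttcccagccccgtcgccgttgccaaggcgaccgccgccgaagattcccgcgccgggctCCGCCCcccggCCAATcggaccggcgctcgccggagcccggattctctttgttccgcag
Nup153, chr13:46727800-46728099, minus strand: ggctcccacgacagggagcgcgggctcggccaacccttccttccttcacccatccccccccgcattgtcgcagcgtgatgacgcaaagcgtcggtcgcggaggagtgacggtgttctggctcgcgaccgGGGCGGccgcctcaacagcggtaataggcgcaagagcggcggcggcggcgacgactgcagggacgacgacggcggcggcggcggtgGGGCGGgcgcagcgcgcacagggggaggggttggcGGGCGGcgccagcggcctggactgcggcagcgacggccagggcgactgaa
Nup155, chr15:8109063-8109362, plus strand: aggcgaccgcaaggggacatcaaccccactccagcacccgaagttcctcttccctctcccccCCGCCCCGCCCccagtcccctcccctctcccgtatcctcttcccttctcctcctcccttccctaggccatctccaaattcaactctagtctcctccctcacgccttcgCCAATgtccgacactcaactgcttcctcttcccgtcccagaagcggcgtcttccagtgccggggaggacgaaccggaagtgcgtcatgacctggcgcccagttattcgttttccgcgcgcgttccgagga
Nup62, chr7:44815838-44816137, plus strand: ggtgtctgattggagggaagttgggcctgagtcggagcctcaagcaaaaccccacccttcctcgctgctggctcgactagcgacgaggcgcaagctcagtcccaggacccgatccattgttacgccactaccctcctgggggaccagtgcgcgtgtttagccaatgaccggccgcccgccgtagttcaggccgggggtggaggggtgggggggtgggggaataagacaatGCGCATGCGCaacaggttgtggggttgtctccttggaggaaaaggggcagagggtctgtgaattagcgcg
Kpna7, chr5:145009587-145009886, minus strand: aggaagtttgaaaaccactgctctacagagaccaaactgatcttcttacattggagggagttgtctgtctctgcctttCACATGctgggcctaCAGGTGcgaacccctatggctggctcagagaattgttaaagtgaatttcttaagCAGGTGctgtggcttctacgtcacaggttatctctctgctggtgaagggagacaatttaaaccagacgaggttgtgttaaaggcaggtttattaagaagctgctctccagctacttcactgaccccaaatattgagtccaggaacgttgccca

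The genes themselves lie at chr13:98839019-98926384 (Tnpo1), chr13:46679902-46727849 (Nup153), chr15:8109263-8159859 (Nup155), chr7:44816088-44831836 (Nup62) and chr5:144983727-145009636 (Kpna7) in the same build. These windows differ in base composition. The Kpna7 window held 4 CpG dinucleotides, the lowest number among the 38 genes, and 46.7% G and C. Those of Tnpo1, Nup153, Nup155 and Nup62 held 41, 45, 23 and 19 CpG. The median over the 38 genes was 27.5 CpG, against 17 in 14645 coding genes and 12 in all 20353 genes of the table with a window. A gene can have several windows, and the CpG counts and printed sequences use its first. The motif shares count a gene if any of its windows holds the motif. The NRF1 core, read the same on both strands, lay in 4 of 38 genes, namely Nup107, Nup50, Nup62 and Xpo5 (10.5%), against 1.39% of all genes and 1.75% of coding genes. GGGCGG was found in 73.7% of the 38 genes, against 48.1% of all genes and 57.6% of coding genes, and CCAAT in 57.9%, against 41.3% and 42.3%. Any E-box, a pattern that includes CACGTG, lay in 44.7% of the 38 genes, against 73.0% and 70.5%. CACGTG itself lay in 18.4%, against 9.22% of all genes and 10.2% of coding genes. The cAMP response element TGACGTCA lay in 2 of 38 genes (5.26%), against 2.42% and 2.92%. A match of letters describes the window and is not a bound site.

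The comparison of PRP with medium alone asks which transcripts had changed by 2 h. None of the 47 genes passed an adjusted p of 0.05 in the unpaired edgeR quasi-likelihood test, in which 0 of 17475 genes passed (0%) and the smallest adjusted p was 0.9998. At an unadjusted p under 0.05, 4 genes lay lower in PRP, namely Nup155, Nup153, Tnpo1 and Xpo4, and 0 higher. In that direction the level over all tested genes was 1.93%, against 8.51% of the members. The number of members lower at that level was 0, 2 and 3 without PRP 1, 2 and 3 in turn. It was 8, 2 and 1 without control 1, 2 and 3 in turn. DESeq2 and limma-voom without pairing also called 0 members, with 3 lower at that unadjusted level in each. The shares of all tested genes at that level were not counted in these other fits. As a group the genes lay slightly lower in PRP: 38 of 47 had a log2 fold change below 0, where 49.6% of all tested genes did, and the median was -0.07, against 0.00 over all tested genes. No single gene had a log2 fold change above 0.09 or below -0.40.

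**Figure D1:**
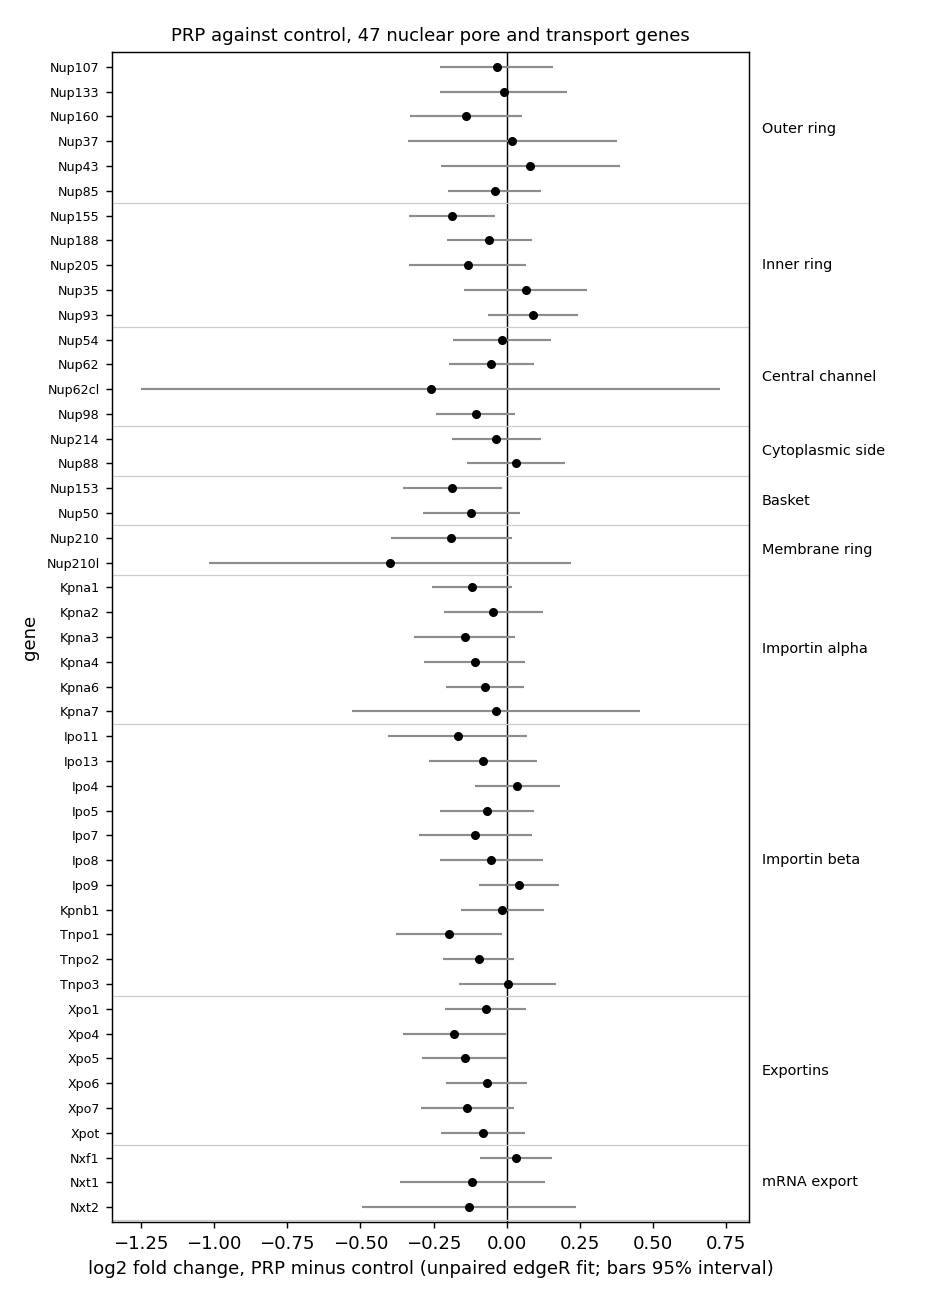
Log2 fold change of the 47 genes, PRP minus control, from the unpaired edgeR fit (x axis, points) with 95% intervals (bars), grouped by role down the page. Points lie left of 0 for 38 genes, and the intervals of 4 genes, Nup155, Nup153, Tnpo1 and Xpo4, lie wholly below 0.

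The median standard error was 0.07 on the log2 scale, against 0.14 over all tested genes, and the 95% intervals were between 0.24 and 1.98 wide. They spanned 0 in 43 of the 47 genes. The widest belonged to Nup62cl, from -1.25 to 0.73, and the next to Nup210l, from -1.02 to 0.22.

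Each PRP library's deviations from its group mean correlated best with those of the control of the same replicate number. Of the variance in log2 CPM of the 47 genes, 19.2% lay between treatments and 71.0% between replicate numbers, which take 1 and 2 of the 5 degrees of freedom (20% and 40%). Over 11165 well-expressed genes these shares were 14.0% and 67.5%. With the replicate number as a block, 0 of the 47 genes passed, where 21 of 17475 genes did (0.12%), 7 of them lower (0.0401%). The smallest blocked adjusted p among the members was 0.125, for Tnpo1. At an unadjusted p under 0.05, 16 members lay lower and 0 higher in this fit, and 5.91% of all tested genes lay lower at that level. Without replicates 1, 2 and 3 in turn the 16 became 10, 8 and 5, and the share of all tested genes was not counted there. PRP was below control in every one of the 3 pairs in 28 of 47 genes, where 16.3% of tested genes were, and above it in every pair in 1, Nup93, where 16.8% were. All 3 PRP libraries lay below all 3 controls in 8 genes, where 4.87% of tested genes did, and above them in 0, where 4.34% did. These 8 were Nup98, Nup153, Nup155, Nup210, Kpna1, Tnpo2, Xpo4 and Xpo5.

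**Figure D2:**
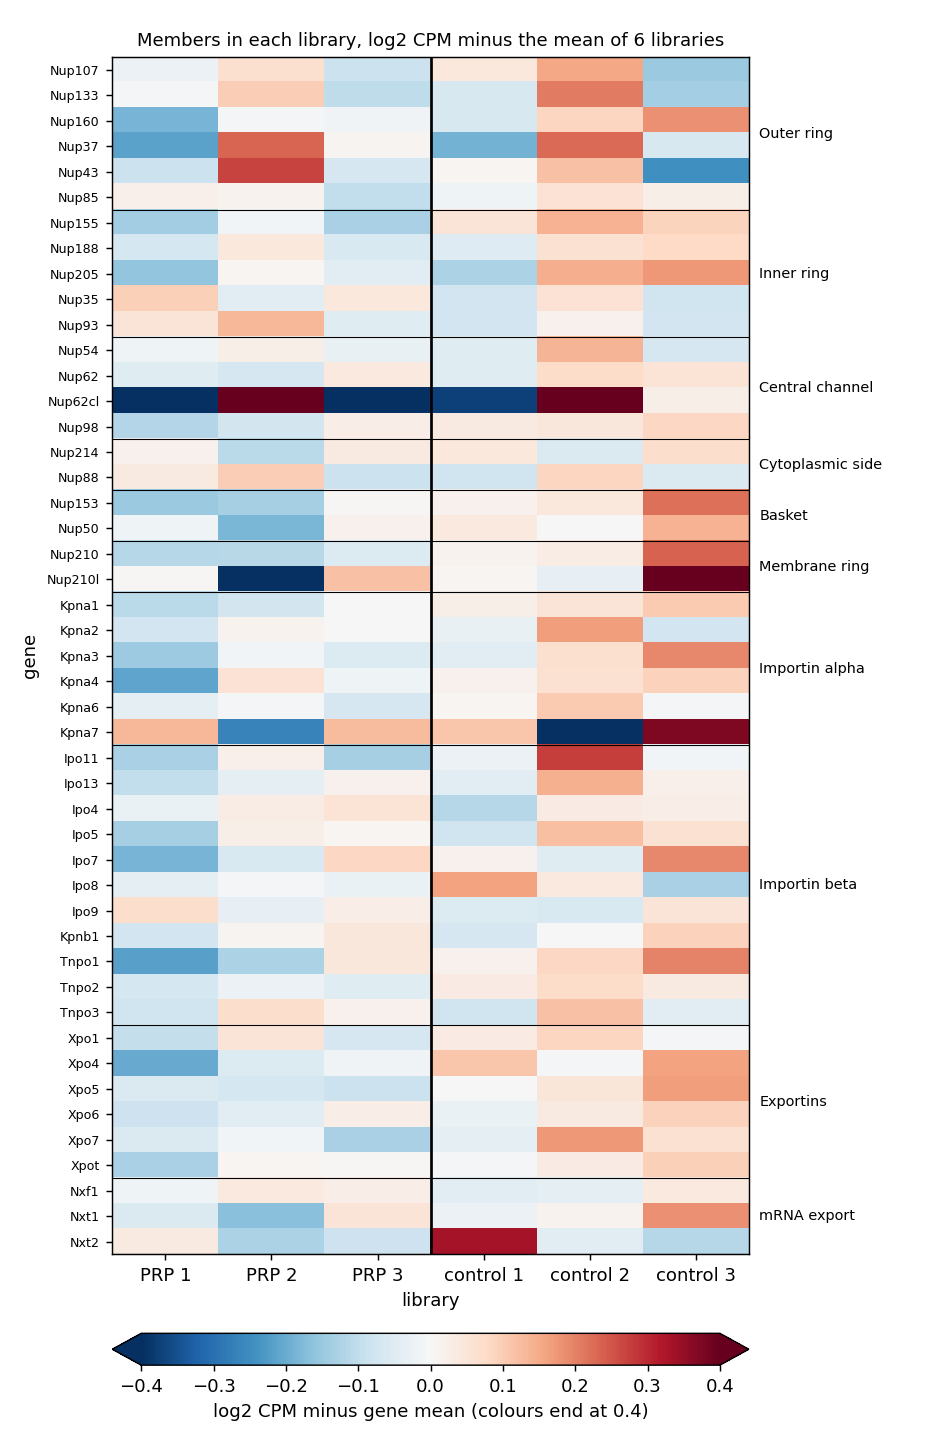
Log2 CPM of each gene (rows, grouped by role) in each library (columns) minus that gene's mean over the 6 libraries, with colours ending at 0.4 on either side. PRP 1 is the lowest library in 23 of the 47 genes and control 3 the highest in 21, and Nup62cl, Nup210l and Kpna7 vary most.

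Pairs and single libraries were examined in turn. The members' median difference was -0.05, -0.09 and -0.07 in pairs 1, 2 and 3, with 36, 39 and 35 genes lower. PRP 1 held the lowest value of the 6 libraries in 23 genes, and control 3 the highest in 21 and control 2 in 16. Without control 3, the library with the high erythroid and interferon sums, the median was -0.08 with 39 genes lower. Without PRP 1 it was -0.05 with 37 lower. The smallest number of genes below 0 with 1 library left out was 33, without control 2.

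Transcript length and base composition moved with these differences. The members have long transcripts, with a median of 4236 bases, against 2679 bases over 15338 tested genes with a GENCODE transcript, and 46.99% G and C, against 50.5%. Across the members, Spearman's rho between log2 fold change and length was -0.43, and with GC content 0.29 (n = 47, genes of the same 6 libraries). Over the 15338 tested genes rho was -0.26 and 0.26, and long, AT-rich transcripts in general lay lower in PRP. Among all tested genes with a transcript of 4236 bases or more, 69.5% lay below 0, with a median of -0.06, and 31.8% were lower in every pair. Of the 24 members that long, 23 lay below 0, with a median of -0.11, and 20 were lower in every pair. Of the 23 shorter members, 15 lay below 0, with a median of -0.04. Among all shorter tested genes 44.0% did, with a median of 0.02. Nup188 counts as shorter by its median length of 534 bases, although its longest coding transcript has 5710 bases. In every pair 8 of the shorter members were lower, against 12.6% of all shorter tested genes. With a correction for GC content and length in the blocked fit, 33 of 47 members lay below 0 (70.2%, against 49.0% of the genes fitted), and their median was -0.05, against 0.00. In that fit 0 members passed, and the smallest adjusted p was 0.484, for Nup188, which entered with its length of 534 bases. At an unadjusted p under 0.05, 4 members lay lower and 0 higher. The share of all fitted genes at that level was not counted in this fit. Whether length and base composition account for any of these differences was not tested.

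**Figure D3:**
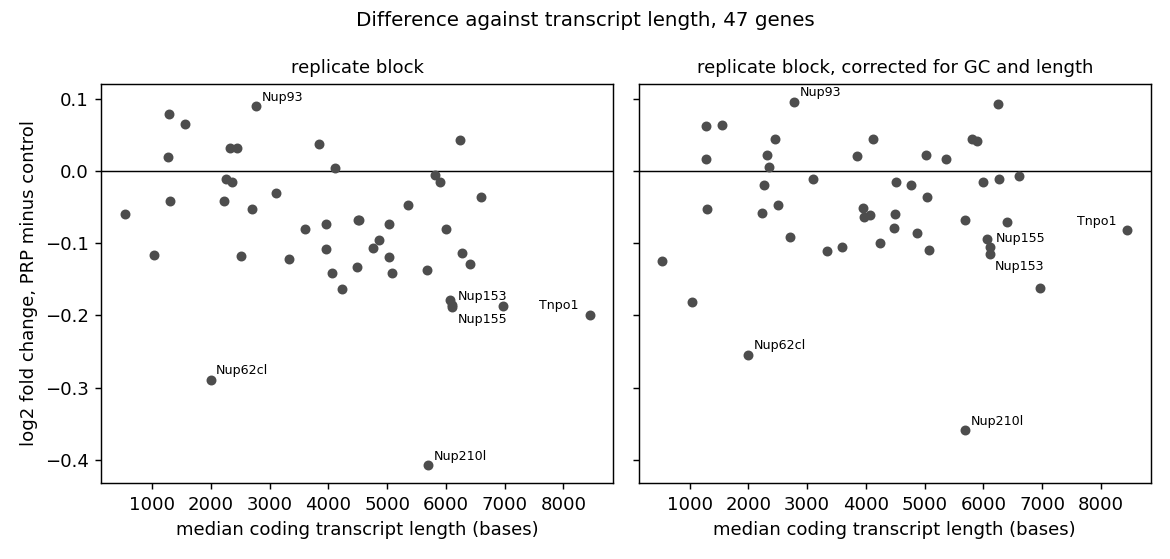
Log2 fold change of each of the 47 genes, PRP minus control (y axis), against the median length of its coding transcripts in bases (x axis), in the blocked fit (left) and in the fit corrected for both properties (right). Tnpo1, the longest at 8449 bases, lay at -0.20 in the left panel and -0.08 in the right one. Nup188 is plotted at 534 bases, although its longest coding transcript has 5710 bases.

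The outer ring of the pore is built from the Y complex. Of its 6 members here, 4 lay below 0, 0 passed, and the median log2 fold change was -0.02. With the correction for GC content and length 3 of the 6 did, with a median of 0.00. Nup160, a large subunit of the Y complex, had 60.1, 68.1 and 67.6 CPM in PRP 1 to 3, against 65.4, 72.6 and 77.6 CPM in control 1 to 3. The groups overlapped, and PRP was the lower in each pair. Its log2 fold change was -0.14 ± 0.085 (SE, unadjusted p = 0.136, adjusted p = 0.9998), and -0.08 without PRP 1 or without control 3. Nup133, which anchors the complex in the ring, had 106.7, 114.7 and 99.8 CPM in PRP and 102.3, 123.6 and 97.5 CPM in control, with both libraries numbered 2 the highest of their groups and a log2 fold change of -0.01 ± 0.10. Nup43, a small subunit, lay at 0.08 ± 0.14, the highest of the 6.

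The inner ring had 5 members, of which 3 lay below 0 with a median of -0.06. Nup155, which links the ring to the membrane, had 70.5, 77.1 and 71.0 CPM in PRP, against 80.6, 85.5 and 82.7 CPM in control. All PRP values lay below all control values. It averaged 72.9 ± 3.67 CPM in PRP and 82.9 ± 2.47 CPM in control (SD, n = 3 each), a log2 fold change of -0.19 ± 0.07 (SE). Its unadjusted p of 0.0182 was the smallest of the 47 genes in the unpaired edgeR fit, and it did not pass (adjusted p = 0.9998, and 0.182 with the block). After the correction for GC content and length it lay at -0.11 ± 0.05. Nup188, a large scaffold protein, had 111.0, 120.0 and 111.7 CPM in PRP and 112.5, 121.5 and 123.1 CPM in control, a log2 fold change of -0.06 ± 0.06. After correction for GC content and length it was -0.12 ± 0.05 (edgeR, unadjusted p = 0.0219), but that fit used a length of 534 bases, the median of its mostly short annotated transcripts. Nup93, which nucleates the ring, lay highest of all 47 genes at 0.09 ± 0.07, with 94.7, 100.2 and 88.5 CPM in PRP and 86.7, 92.6 and 86.8 CPM in control.

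The central channel was represented by Nup54, Nup62, Nup98 and the Nup62-like gene Nup62cl, all 4 below 0, where 49.6% of all tested genes were. With the correction for GC content and length 3 of the 4 lay below 0, with a median of -0.08. Nup98, a mobile repeat protein that also helps RNA export, had 175.8, 181.3 and 194.3 CPM in PRP, against 195.2, 196.6 and 201.8 CPM in control. The groups did not overlap, but the gap between the highest PRP and the lowest control library was under 1 CPM. Its log2 fold change was -0.11 ± 0.06 (SE). Nup62, the core channel nucleoporin whose window holds the NRF1 core, averaged 94.6 ± 3.73 CPM in PRP and 98.1 ± 4.45 CPM in control. The spans of Nup98 and Nup62 each overlap other genes of the table, and the strand setting of the counting is not given in the sources used here.

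Nup62cl varied most between libraries, with a coefficient of variation of 42.8% over the 6. It had 5.71, 12.7 and 5.46 CPM in PRP, against 6.27, 14.0 and 8.26 CPM in control, and both libraries numbered 2 were the highest. This gene was singled out after its values were seen. Its log2 fold change was -0.26 ± 0.42 (SE) without pairing and -0.29 ± 0.15 with the block (edgeR, adjusted p = 0.499). PRP was the lower in each pair, and the unpaired value ran from -0.77 without PRP 2 to 0.13 without control 2.

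Of the cytoplasmic side, which receives outgoing cargo, Nup214 and its partner Nup88 were measured. Nup214 had 112.8, 103.4 and 114.3 CPM in PRP and 114.7, 107.1 and 116.9 CPM in control. Nup88 lay at 0.03 ± 0.07 and Nup214 at -0.04 ± 0.07 on the log2 scale, both within their errors. In the nuclear basket, Nup153, which docks importins and RNA export factors, had 149.7, 151.2 and 166.5 CPM in PRP, against 167.7, 170.9 and 193.2 CPM in control. Every PRP value was below every control value, and the 2 libraries numbered 3 were the highest of their groups. The means were 155.8 ± 9.29 CPM in PRP and 177.3 ± 13.9 CPM in control (SD, n = 3 each), with a log2 fold change of -0.19 ± 0.07 (SE, unadjusted p = 0.0338, adjusted p = 0.9998). Without control 3 it was -0.12 (edgeR, unadjusted p = 0.128). Nup153 was 1 of 2 members that DESeq2 called lower with the replicate block (adjusted p = 0.0496), where it called 0.275% of all tested genes lower. DESeq2 gave no adjusted p to 13213 of these 17475 genes, 13 members among them, and the 48 genes it called lower were 1.13% of the 4262 that had one. It did not pass in edgeR with the block (adjusted p = 0.153) or after correction for GC content and length (-0.12 ± 0.05, adjusted p = 0.487). Nup50, the other basket gene, lay at -0.12 ± 0.07, and at -0.06 without PRP 2 and -0.08 without control 3.

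Nup210 and the related Nup210l code for membrane proteins of the pore, and Nup210l is known mainly from testis. Nup210 had 33.1, 33.2 and 34.4 CPM in PRP, against 36.1, 36.5 and 42.2 CPM in control. Its PRP values were close together and all below the controls, at a log2 fold change of -0.19 ± 0.09. Without control 3 it was -0.11. Nup210l had the lowest level per length of the 47 genes, with 6.37, 3.81 and 6.90 CPM in PRP, against 6.385, 6.21 and 9.91 CPM in control. Its log2 fold change of -0.40 ± 0.27 was the lowest of the 47 in the unpaired fit with all libraries and did not pass. PRP 2 was its lowest and control 3 its highest library. Without PRP 2 it was -0.18 and without control 3 it was -0.15, and in neither case the lowest of the 47.

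Importin alpha proteins bind the nuclear localisation signal and hand the cargo to importin beta. All 6 members lay below 0, where 49.6% of all tested genes did, with a median of -0.09, and none passed. With the correction for GC content and length all 6 lay below 0, with a median of -0.04. Kpna1 had 88.9, 91.0 and 95.8 CPM in PRP, against 97.4, 99.2 and 102.9 CPM in control, with no overlap and a log2 fold change of -0.12 ± 0.06. After that correction Kpna1 lay at -0.04 ± 0.05. Kpna6 averaged 162.6 ± 3.56 CPM in PRP and 171.2 ± 7.25 CPM in control, at -0.07 ± 0.06, and at -0.04 without control 2. Kpna7, the oocyte and early embryo form, had 13.5, 10.2 and 13.4 CPM in PRP and 13.3, 8.83 and 15.9 CPM in control. Both libraries numbered 2 were the lowest, the opposite of Nup62cl. The summed oocyte markers were likewise lowest in these libraries, at 2648 CPM in PRP 2 and 2535 CPM in control 2. The Kpna7 log2 fold change was -0.04 ± 0.22, and it turned to 0.08 without PRP 2 and 0.16 without control 3.

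**Figure D4:**
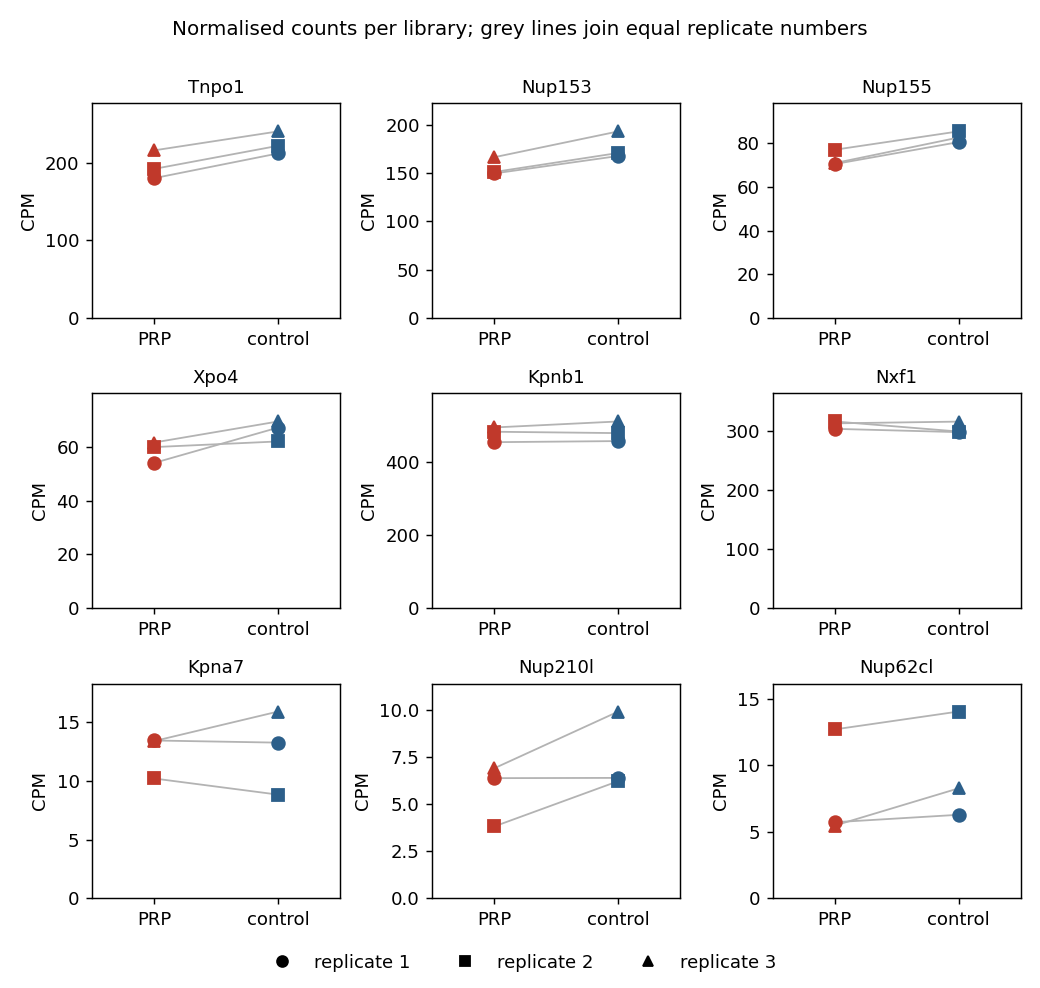
Normalised CPM (y axis from 0) of 9 genes in the 3 PRP libraries (left, red) and the 3 control libraries (right, blue), with symbols and grey lines for equal replicate numbers. Tnpo1, Nup153 and Nup155 are lower in PRP in each pair, Kpnb1 and Nxf1 are nearly level, and Nup62cl is highest in both libraries numbered 2.

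Importin beta type receptors pass the pore with or without an adaptor. Of 11 members, 8 lay below 0, 0 passed, and the median was -0.07. With the correction for GC content and length 6 did, with a median of -0.02. Tnpo1, or transportin, which imports RNA-binding proteins, had 180.1, 192.0 and 215.9 CPM in PRP, against 212.0, 221.8 and 240.3 CPM in control. PRP was lower in each pair, by 0.24, 0.21 and 0.15 on the log2 scale, while PRP 3 overlapped the controls. Means were 196.0 ± 18.2 CPM in PRP and 224.7 ± 14.4 CPM in control (SD, n = 3 each), a log2 fold change of -0.20 ± 0.08 (SE, unadjusted p = 0.0359, adjusted p = 0.9998). With 1 library left out the unpaired value ran from -0.27 without PRP 3 to -0.14 without PRP 1. With the block Tnpo1 lay at -0.20 ± 0.05, which DESeq2 called (adjusted p = 0.0218) and edgeR (0.125) and limma-voom (0.157) did not. After correction for GC content and length it was -0.08 ± 0.05 (adjusted p = 0.658), and its span overlaps a ribosomal protein pseudogene. Kpnb1, the main importin beta and the most abundant member by CPM, had 454.5, 483.1 and 494.9 CPM in PRP and 457.6, 479.4 and 511.3 CPM in control. Its difference of -0.02 ± 0.06 had a 95% interval of -0.16 to 0.13. Tnpo2, the relative of Tnpo1, had 157.5, 162.7 and 159.9 CPM in PRP, against 169.4, 174.2 and 169.5 CPM in control, with no overlap and a log2 fold change of -0.10 ± 0.05. Ipo4, Ipo9 and Tnpo3 were the 3 members above 0, at 0.04, 0.04 and 0.00.

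All 6 exportin genes lay below 0, each of them lower in PRP in every pair, with a median of -0.11. Of all tested genes, 49.6% lay below 0 and 16.3% were lower in every pair. All 6 exportin genes have a median transcript length above 4236 bases. Among all tested genes of that length or more the shares were 69.5% and 31.8%. No exportin gene passed. After correction for GC content and length 5 of the 6 lay below 0, with a median of -0.07. Xpo4, which exports translation factor eIF5A, had 54.1, 60.0 and 61.7 CPM in PRP, against 67.3, 62.1 and 69.6 CPM in control, a log2 fold change of -0.18 ± 0.08 (SE, unadjusted p = 0.0492). The groups did not overlap, but the pairs were uneven, and replicate 2 differed by only 0.05. With 1 library left out the unpaired Xpo4 value ran from -0.22 without control 2 to -0.12 without PRP 1. After correction for GC content and length Xpo4 lay at -0.09 ± 0.06. Xpo5, the exporter of microRNA precursors, had 91.5, 90.8 and 89.7 CPM in PRP, against 95.2, 98.4 and 106.9 CPM in control, again without overlap. Its log2 fold change was -0.14 ± 0.06, and -0.09 without control 3. Xpo1, the general exporter of proteins with leucine-rich export signals, FOXO factors among them, had 213.5, 236.3 and 217.8 CPM in PRP and 233.1, 242.2 and 226.7 CPM in control, at -0.07 ± 0.06 (95% interval -0.21 to 0.07), and at 0.02 ± 0.04 after that correction.

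Of the messenger RNA export receptor, Nxf1 and its cofactors Nxt1 and Nxt2 were measured. Nxf1 was the steadiest of the 47 genes, with a coefficient of variation of 2.72% over the libraries. It had 304.5, 317.0 and 313.8 CPM in PRP and 298.9, 299.9 and 316.8 CPM in control, and a log2 fold change of 0.03 ± 0.05. Nxt1 had 21.9, 20.2 and 23.5 CPM in PRP and 22.4, 23.0 and 25.8 CPM in control, at -0.12 ± 0.11, and at -0.06 without PRP 2 and -0.05 without control 3. The X-linked Nxt2 had 10.02, 8.94 and 9.22 CPM in PRP and 12.3, 9.47 and 9.03 CPM in control.

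Levels were compared between genes per kilobase of transcript. By the median length of coding transcripts the members ran from 1.16 for Nup210l to 218 for Nup188 in RPKM, the CPM per kilobase, averaged over the 6 libraries, with a median of 25.1, against 10.3 over all tested genes with a length. The Nup188 value rests on short annotated transcripts with a median of 534 bases, and by its longest coding transcript the gene lay at 20.4. By longest transcript the order began with Ipo5 at 93.6, Kpnb1 at 81.5, Nxf1 at 76.3 and Kpna2 at 75.8. By the median length Nxf1 lay at 133 and Kpna2 at 120. Kpna7, Nup210, Nup62cl, Nxt2 and Nup210l were the lowest 5 by the median length. In that order, 39 of 46 neighbouring genes had overlapping library ranges, so most adjacent ranks were not separated.

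**Figure D5:**
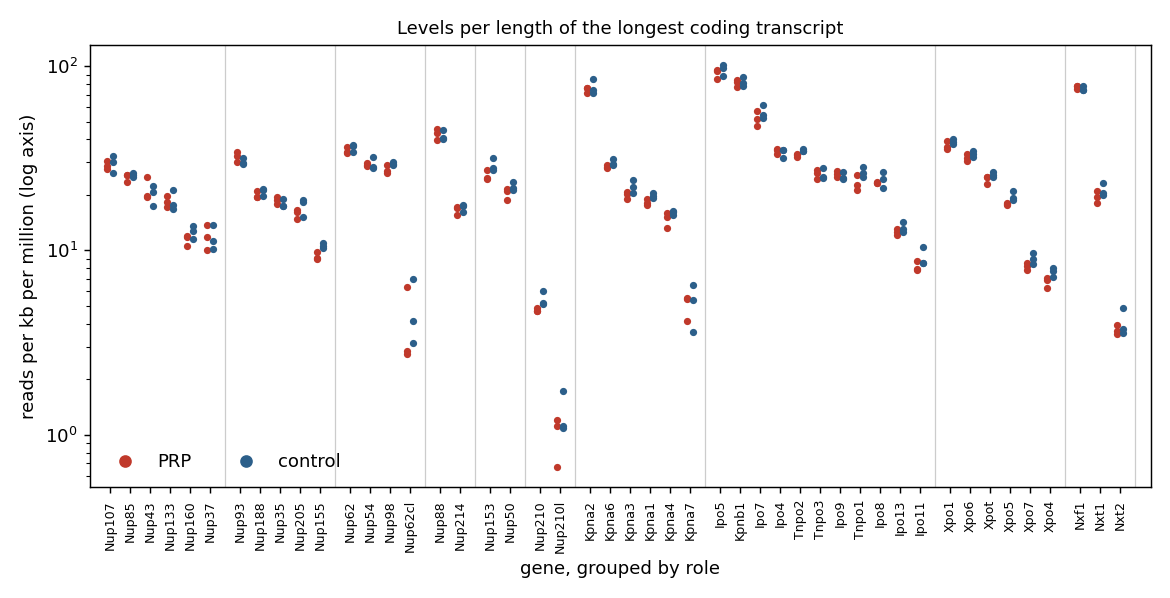
Level of each gene in RPKM of its longest coding transcript (y axis, log scale) in PRP libraries (red, left of each pair) and control libraries (blue, right), grouped by role. Ipo5, Kpnb1, Nxf1 and Kpna2 stand at the top and Nup210l at the bottom, and the colours overlap in most genes.

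Partners of the pathway outside the name pattern gave 0 of 51 tested genes past the threshold in edgeR, with and without the block. Of these 51, 28 lay below 0, where 49.6% of all tested genes did, and the median was -0.01. At an unadjusted p under 0.05, 2 partners lay lower without the block and 3 with it, and 0 higher. Of all tested genes, 1.93% lay lower at that level without the block and 5.91% with it. The GTPase Ran had 332.7, 365.8 and 334.5 CPM in PRP and 328.0, 343.8 and 350.4 CPM in control, a log2 fold change of 0.02 ± 0.06. Among the 12 other pore genes 7 lay below 0, with a median of -0.07. Ranbp2, the large nucleoporin of the cytoplasmic filaments, had 255.1, 299.9 and 308.2 CPM in PRP, against 313.8, 334.2 and 336.2 CPM in control. It was chosen after its values were seen. Its groups did not overlap, and the log2 fold change was -0.19 ± 0.08, with an edgeR adjusted p of 0.9998 and 0.143 with the block, and 0.0313 in blocked DESeq2. Medians were 0.01 for 8 genes of the Ran cycle, 0.00 for 21 RNA export partners and -0.03 for 10 lamina genes.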

How the data were processed

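Messenger RNA libraries of cultured mouse ovary, 3 with PRP and 3 controls, were analysed. The deposited table holds unnormalised whole-number counts for each gene symbol. The build, per the submitters' processing notes, is GRCm38 (mm10). Aligner, counter, strand setting and annotation were not given in the sources used here. Columns were matched to samples by title; the column of PRP 3 spells the letters in another order and was matched because every other title has its own column. Of the 47 members, 21 overlap another gene's span, so their counts may include its reads. Pairs of libraries differed beyond counting noise (chi-square per degree of freedom 8.91 to 32.0), so none was a duplicate.

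Counts were fitted over all genes with edgeR 4.0.16 (R 4.3.3, TMM scaling, filterByExpr, robust quasi-likelihood F test, two-sided, Benjamini-Hochberg at 0.05; 95% intervals). Standard errors came from the log2 fold change and F. Adjusted p-values are over all tested genes. CPM use TMM library sizes. DESeq2 1.42.0, limma-voom (limma 3.58.1), scalings, filters and left-out libraries were alternatives. The correction for GC content and length used natural splines per library on GENCODE M21 transcripts (basic coding set where present). Coordinates are from RefSeq (GRCm38.p6). The fits were checked on simulated counts. These had no replicate effect and less spread than the unpaired fit found, so that check does not show what either fit could detect here.

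Deviations from group means gave correlations of 0.49, 0.65 and 0.57 for same-numbered libraries, and -0.02 or less for every other pair across the groups, so the numbers were taken as pairs, from the data and not from a label. Members, lists and alternatives were chosen with earlier results of these data known. The named genes were, per role, the member with the smallest unpaired p and that with the highest CPM, any that passed, Kpna7, Nup210l, Xpo1, Kpnb1, Nxf1 and Ran. Other members named were chosen after their values were seen.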

Additional observations from a re-analysis of the deposited data

How the results depend on the processing

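The count of members past the threshold stayed at 0 in each direction under 21 of the 22 alternatives. The exception was DESeq2 with the replicate block, with 2 lower (Tnpo1 and Nup153). The paired edgeR fit gave 0 and changed no call among the members or partners; over all genes it made 21 calls, against 0 without pairing. The members' median log2 fold change of -0.07 stayed below 0 throughout. It was -0.051 in the replicate block with GC and length correction and ran from -0.101 (without control 1) to -0.052 (without PRP 1) when 1 library was left out. With the GC and length correction Kpnb1 lay at 0.041, Nup133 at 0.044 and Xpo1, which had been at -0.07, at 0.022. In the paired fit without replicate 3, Kpna7 lay at 0.112 and Kpnb1 at 0.0012, and without replicate 2 Nup133 lay at 0.047. With 1 library left out, Kpna7 ran from -0.238 to 0.162, Kpnb1 from -0.0544 to 0.0281, Nup133 from -0.077 to 0.102 and Nup214 from -0.0699 to 0.0090. The cause was not tested. The corrected fit removes whatever follows length and GC content, of whatever origin, and is not a test of cause. The members' median standard error of 0.07 on the log2 scale limits what 6 libraries can show. Replacing the median transcript length by the longest moved the level per length of 7 named members by more than their spread.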
